A study of Homo sapiens with 37 samples.

Results

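The genes described here encode enzymes of the pentose phosphate pathway: PGLS and PGD of the oxidative branch, RPIA, RPE, TKT and TALDO1 of the non-oxidative branch, and TIGAR, which acts on the flow of glucose into the pathway. They were chosen by name, as the rows whose Ensembl identifier carries one of these 7 symbols, and all 7 were found among the 32055 genes of the table. The filter on low counts, which kept 10661 genes for testing, was passed by the 6 enzymes in libraries of both groups and by TIGAR through KO libraries only. Of the oxidative branch, PGLS and PGD were analysed here.

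The samples were 37 libraries of K562, an established human erythroleukemia cell line, 26 labelled KO and 11 labelled Control. KO cells had received Cas9 with 1 of 2 gRNAs against ZBTB7A, a zinc finger transcription factor of blood cells. Control cells had received the Cas9 vector with no gRNA. Lines were grown from single sorted cells of this one cell line. The labels name a library only by its barcode and its genotype and do not tie it to a clone or gRNA, so libraries of one clone cannot be told from those of another and the p-values measure the spread between libraries, which may be technical in part.

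The pathway leaves glycolysis at glucose 6-phosphate. Its oxidative branch yields NADPH, which reduces glutathione and thioredoxin and serves lipid synthesis, and ribulose 5-phosphate. The non-oxidative branch interconverts sugar phosphates, so that ribose 5-phosphate for nucleotides can be made from, or returned to, the intermediates of glycolysis. Red cell precursors rely on NADPH from this pathway to keep hemoglobin and membranes reduced.

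RNA was measured by bulk SCRB-seq, which reads the 3′ ends of transcripts and marks every molecule with a short random tag, the UMI. A UMI count is therefore a number of captured molecules that does not grow with transcript length. Levels were set side by side between genes on this scale, but the share of a gene's molecules that was counted can differ between genes and was not tested. FTH1, a ferritin gene, had 2 to 20 UMIs per library while its partner FTL had 1279 to 13199, so the order of levels, the shares and the branch sums below hold for counted molecules only. Total UMIs ranged from 1070250 to 4270901 per KO library (median 2030965) and from 563235 to 4710809 per Control library (median 3518944). Levels are given as CPM (UMIs scaled to library size after TMM) or as log2 CPM. The targeted gene ZBTB7A was at 5.82 ± 0.29 log2 CPM in the Control group (SD, n = 11) and at 5.95 ± 0.26 in the KO group (SD, n = 26), and a 3′ count does not show whether its coding sequence was edited. Over all tested genes, 25 KO libraries lay nearer to the mean of the other KO libraries, while the KO-labelled library GGCCAC lay nearer to the Control mean, with a mean absolute difference of 0.243 log2 CPM from the Control mean and 0.316 from the mean of the other KO libraries. Barcodes also differed in make-up, since an AT-rich barcode, with at most 2 G or C among its 6 bases, marked 12 libraries of KO and 8 of Control, and a GC-rich one 12 of KO and 1 of Control. The erythroid markers GATA1, KLF1, TAL1, HBG1, HBG2, HBZ and TFRC were all detected, with a summed level of 3640 to 8310 CPM in Control and 2700 to 9110 CPM in KO libraries. Of these 7 genes, 1 was called higher and 3 lower in KO libraries (an adjusted p below 0.05 in the edgeR test used throughout). Of all tested genes, 17.7% were called higher and 16.2% lower. The part of the erythroid markers in the results below was not tested. Megakaryocyte markers summed to at most 6.07 CPM in Control and 23.5 CPM in KO libraries, with ITGA2B at up to 19 and 41 UMIs. PPBP was at 0 in 8 of 11 Control and 26 of 26 KO libraries, and no megakaryocyte marker was tested. Myeloid markers summed to at most 5.68 CPM in Control and 9.43 CPM in KO libraries. The 1 myeloid marker tested, ITGAM, had at most 1.94 log2 CPM in Control libraries, against 2.13 for TIGAR. Like TIGAR it thus passed the filter on low counts through KO libraries only, and the filter itself favoured a higher level there. ITGAM was called higher in KO libraries by 1.23 on the log2 scale (adjusted p = 0.00248 in edgeR). This call is not read further, and the part of ITGAM in the results was not tested. The 4 lymphoid markers in the table summed to 16.5 to 73.6 CPM in Control and 1.4 to 30.3 CPM in KO libraries, nearly all of it CD3D, which fell by 1.85 on the log2 scale and whose part in the results was not tested either.

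The promoters of the 4 genes whose level differed between the groups are shown because they give the sequence in front of each start. Each is the 250 bases upstream of the RefSeq transcription start on GRCh38.p14, read 5′ to 3′ on the strand of the gene, and capitals mark matches to the motifs searched. They lie at chr2:88691423-88691672 on the plus strand for RPIA, chr3:53256023-53256272 on the minus strand for TKT, chr11:747214-747463 on the plus strand for TALDO1 and chr12:4320963-4321212 on the plus strand for TIGAR.
RPIA: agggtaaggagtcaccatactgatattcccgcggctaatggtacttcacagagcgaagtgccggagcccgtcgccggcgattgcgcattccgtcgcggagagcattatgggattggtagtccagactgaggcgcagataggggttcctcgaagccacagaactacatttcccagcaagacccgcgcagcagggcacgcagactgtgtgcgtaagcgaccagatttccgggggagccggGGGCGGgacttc
TKT: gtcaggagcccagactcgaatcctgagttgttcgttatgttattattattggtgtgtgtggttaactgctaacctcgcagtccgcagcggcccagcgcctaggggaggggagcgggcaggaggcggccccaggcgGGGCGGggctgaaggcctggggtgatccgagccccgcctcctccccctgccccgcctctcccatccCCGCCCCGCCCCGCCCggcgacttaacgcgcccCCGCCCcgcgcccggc
TALDO1: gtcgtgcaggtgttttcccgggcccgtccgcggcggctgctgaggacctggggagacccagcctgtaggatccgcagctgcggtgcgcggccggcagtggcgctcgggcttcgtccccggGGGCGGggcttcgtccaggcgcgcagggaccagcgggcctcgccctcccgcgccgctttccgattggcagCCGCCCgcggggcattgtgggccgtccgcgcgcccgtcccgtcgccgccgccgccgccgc
TIGAR: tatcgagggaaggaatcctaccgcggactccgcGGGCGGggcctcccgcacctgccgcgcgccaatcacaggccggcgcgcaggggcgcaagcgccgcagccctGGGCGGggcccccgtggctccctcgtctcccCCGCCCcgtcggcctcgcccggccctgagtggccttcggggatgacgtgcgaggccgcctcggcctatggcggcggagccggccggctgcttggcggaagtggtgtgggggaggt
The start used for TIGAR lies inside the span of the gene in the GENCODE annotation. Motifs were searched on both strands in the 250 bases before and 50 bases after each start, 300 bases in all, and the same was done for 34943 RefSeq promoters. GACCACC, the core of an in vitro ZBTB7A motif, was in 0 of the 7 windows and in 2.98% of all promoters. CACGTG, the E-box, was also in 0 of 7, against 7.23% of all promoters. TGACNNNGC, a form of the antioxidant response element, was in the windows of PGD and RPE, against 13.3% of all promoters. GGGCGG, the GC box, was in all 7 windows and in 44.9% of all promoters. It occurred 5 times in the window of TKT, 3 times each in those of TIGAR and RPE, 2 times each in those of TALDO1 and PGD, and 1 time each in those of RPIA and PGLS. These promoters were rich in G and C, from 60% of the upstream bases in RPIA to 78.4% in TALDO1, while the median of all promoters was 58%.

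Transcripts of the non-oxidative branch were lower in KO than in Control libraries for 3 of its 4 enzymes, RPIA, TKT and TALDO1. The oxidative enzymes PGLS and PGD did not pass the test in either direction, nor did RPE. TIGAR, the least abundant of the 7, was higher in KO libraries. Thus 4 of 7, TIGAR among them, passed edgeR's quasi-likelihood test (adjusted p below 0.05), while 33.8% of all tested genes were called. Of the 7 genes, 3 were called lower, against 16.2% of all tested genes, or 17.4% of those that averaged 10 CPM or more. The 1 gene called higher, against 17.7%, was TIGAR, for which the filter itself favoured that direction. Neither the count in that direction nor the total of 4, which includes TIGAR, is therefore read further. The median log2 fold change of the 7 genes was -0.15 and that of all tested genes was -0.0046. With a further threshold of 0.5 on the absolute log2 fold change, 1 of the 7 genes, TIGAR, was called, against 10.2% of all tested genes. This call of TIGAR is not read further either. In each of the 7 genes the levels of KO and Control libraries overlapped, and 0.281% of all tested genes had no overlap.

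**Figure D1:**
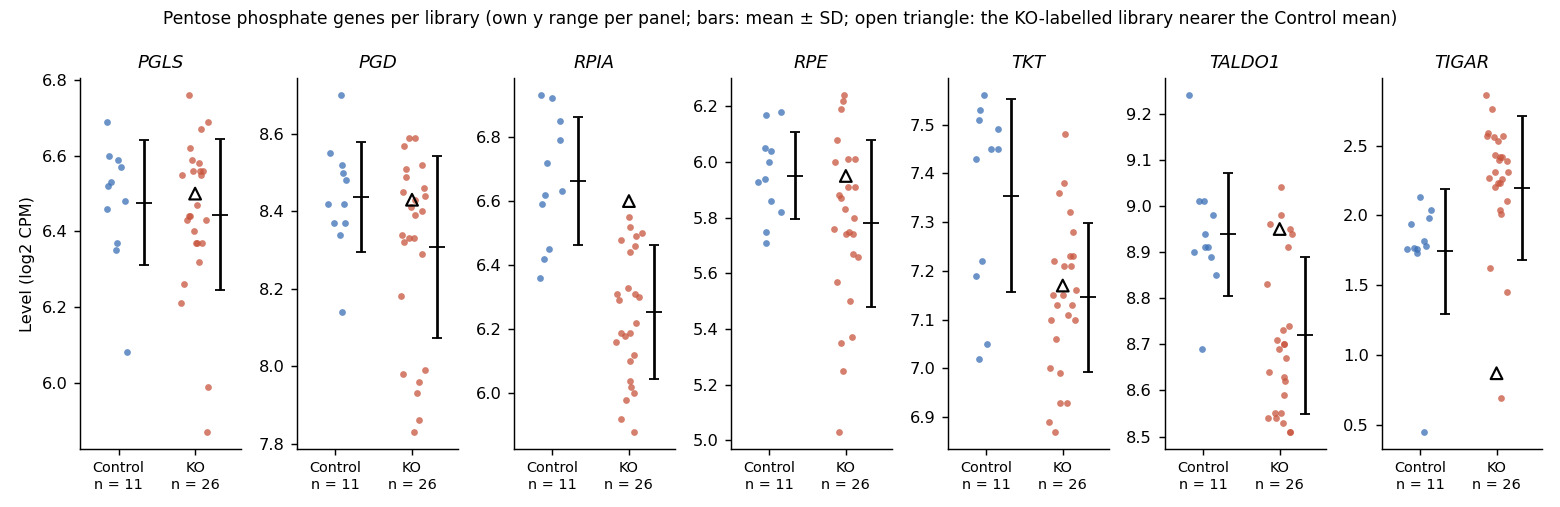
Level of each gene (y axis, log2 CPM, a range of its own per panel) in the 11 Control and 26 KO libraries. Each point is a library, bars show mean ± SD, and the open triangle is the KO-labelled library that lies nearer to the Control mean. For RPIA, 18 KO libraries lie below every Control library, and for TIGAR 19 lie above every Control library.

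The oxidative branch was examined first. PGLS (ENSG00000130313, chr19:17511636-17521288, plus strand) encodes 6-phosphogluconolactonase, which opens the lactone formed by the first step. PGLS had 6.08 log2 CPM in the lowest, 6.52 in the median and 6.69 in the highest Control library, and 5.87, 6.46 and 6.76 in the KO libraries. The groups covered nearly the same range, with 2 KO libraries above and 2 below all Control libraries. PGLS differed by -0.01 on the log2 scale (SE 0.06, adjusted p = 0.921 in edgeR), so that no difference was detected. The gene overlaps PGLS-DT and ENSG00000269161 on the other strand, and whether strand was used in counting is not given in the sources used here.

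PGD (ENSG00000142657, chr1:10398592-10420511, plus strand) encodes 6-phosphogluconate dehydrogenase, which releases carbon dioxide and yields NADPH and ribulose 5-phosphate. It was the second most abundant of the 7 transcripts. PGD had 8.14, 8.42 and 8.70 log2 CPM in the lowest, median and highest Control library and 7.83, 8.39 and 8.59 in the KO libraries. The medians were close, but the KO libraries spread further down and 6 of them lay below every Control library. In order of level, the widest gap among KO libraries, 0.19 log2 CPM, separated the 6 lowest, at 7.83 to 7.99, from the other 20, at 8.18 to 8.59. The labels of these 6 libraries give them nothing in common beyond the genotype. For the whole groups the log2 fold change of PGD was -0.12 (SE 0.07, adjusted p = 0.215 in edgeR). The SD was 0.24 in KO and 0.14 in Control libraries, and a larger SD in KO libraries was found for 73.5% of all genes that averaged 10 CPM or more.

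Among the non-oxidative enzymes, RPIA showed the largest difference. RPIA (ENSG00000153574, chr2:88691673-88750929, plus strand) encodes ribose 5-phosphate isomerase, which converts ribulose 5-phosphate into ribose 5-phosphate. Its level was 81.2, 98.5 and 121 CPM in the lowest, median and highest Control library and 58.1, 75.5 and 96.2 CPM in the KO libraries. No KO library exceeded the Control range and 18 of 26 lay below it. On the log2 scale the mean of RPIA was 6.66 ± 0.20 for Control (SD, n = 11) against 6.25 ± 0.21 for KO (SD, n = 26). RPIA fell by 0.40 on this scale (SE 0.07, adjusted p = 2.03e-05 in edgeR), to 0.757 times the Control level. The highest KO library was GGCCAC with 6.60 log2 CPM, and without it the log2 fold change was -0.42. In bulk RNA, fewer cells with a transcript and less of it per cell cannot be told apart.

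RPE (ENSG00000197713, chr2:210002565-210022260, plus strand) encodes ribulose 5-phosphate epimerase, which makes xylulose 5-phosphate from the same substrate. RPE had 5.71, 5.94 and 6.18 log2 CPM in the lowest, median and highest Control library and 5.03, 5.82 and 6.24 in the KO libraries. KO libraries lay on both sides of the Control range, 3 above it and 8 below it. The SD was 0.30 in KO and 0.16 in Control libraries. The log2 fold change was -0.15 (SE 0.09, adjusted p = 0.201 in edgeR) and did not pass the test. RPE overlaps KANSL1L on the other strand and has a near-identical retrocopy, RPEL1, listed with 0 to 5 UMIs per library, so its count is less certain than those of the other enzymes.

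TKT (ENSG00000163931, chr3:53224712-53256052, minus strand) encodes transketolase, which moves 2-carbon units between sugar phosphates. Its level was 129, 174 and 188 CPM in the lowest, median and highest Control library and 116, 141 and 178 CPM in the KO libraries. Control libraries themselves were split, with 4 of 11 at 7.02 to 7.22 log2 CPM and the other 7 at 7.43 to 7.56. Of the KO libraries, 6 lay below the Control range and 0 above it. Mean levels of TKT were 7.36 ± 0.20 log2 CPM for Control (SD, n = 11) and 7.15 ± 0.15 for KO (SD, n = 26). TKT thus fell by 0.22 (SE 0.06, adjusted p = 0.00245 in edgeR), or to 0.856 times the Control level.

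TALDO1 (ENSG00000177156, chr11:747415-765012, plus strand) encodes transaldolase, which moves 3-carbon units and links the branch back to glycolysis. It was the most abundant of the 7 transcripts. Its level was 413, 481 and 602 CPM in the lowest, median and highest Control library and 363, 413 and 524 CPM in the KO libraries. The median KO library thus matched the lowest Control library, and 13 of 26 KO libraries lay below the Control range. TALDO1 fell by 0.21 on the log2 scale (SE 0.06, adjusted p = 0.00286 in edgeR). When only AT-rich barcodes were kept it was -0.20 (SE 0.08, adjusted p = 0.0627 in edgeR), and the call was lost. The library GGCCAC had 8.95 log2 CPM, within the Control range, and was not alone there. It was 1 of 8 KO libraries at 8.83 to 9.04 log2 CPM, against a Control mean of 8.94. The other 18 KO libraries lay at 8.51 to 8.74, below a gap of 0.09.

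1 Control library, ATATAG, set the lower end of the Control range for PGLS, PGD, RPIA and TALDO1. Without it, the KO libraries below the Control range numbered 5 for PGLS, 12 for PGD, 18 for RPIA and 19 for TALDO1. The count thus depended on that library for PGLS, PGD and TALDO1, while for RPIA it was the same.

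TIGAR (ENSG00000078237, chr12:4307763-4360028, plus strand) encodes a fructose-2,6-bisphosphatase, an enzyme that lowers an activator of glycolysis and so leaves more glucose 6-phosphate to the pathway. It was measured with few molecules, 1 to 13 UMIs per Control and 1 to 19 UMIs per KO library. The filter asked for about 4.39 CPM in a set number of libraries, a level that 0 of 11 Control and 12 of 26 KO libraries reached, so a gene kept in this way was bound to be the higher one in KO libraries. Its level was 0.581, 2.65 and 3.6 CPM in the lowest, median and highest Control library and 0.826, 4.18 and 6.49 CPM in the KO libraries. In 19 of 26 KO libraries TIGAR was above every Control library. The KO libraries were shallower in the median, and the part of depth in this count was not tested. TIGAR was higher in KO libraries by 0.59 on the log2 scale (SE 0.18, adjusted p = 0.00961 in edgeR), or 1.5 times the Control level. The lowest Control library, CGGTGG, and the lowest KO library, TGTTTA, held 1 UMI each, and the library GGCCAC held 2. With every gene tested and no filter it was 0.58 (SE 0.20, adjusted p = 0.0467 in edgeR). When only AT-rich barcodes were kept, the difference in TIGAR was 0.41 (SE 0.21, adjusted p = 0.158 in edgeR), and the call was lost. TIGAR overlaps ENSG00000213970 on the other strand.

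**Figure D2:**
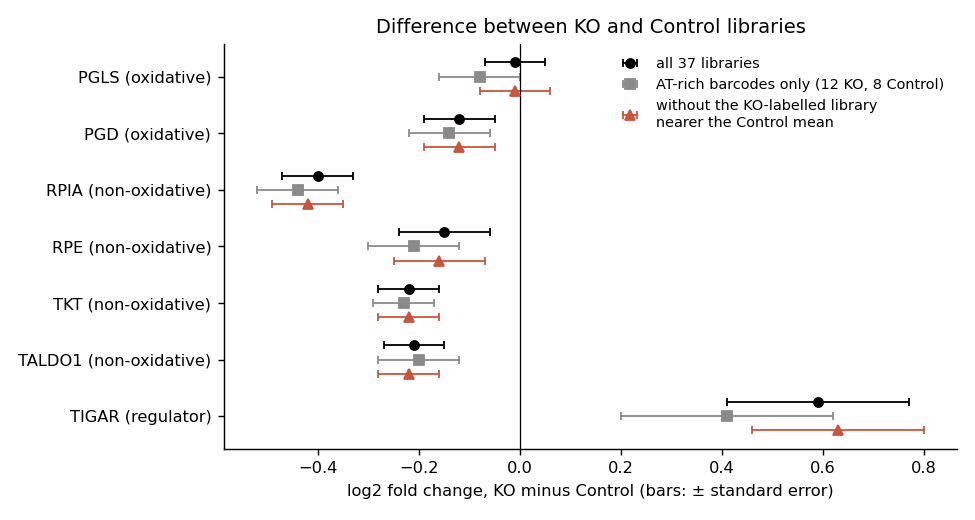
Log2 fold change of KO against Control (x axis, bars ± SE) for each gene, over all 37 libraries, over AT-rich barcodes only, and without the KO-labelled library that lies nearer to the Control mean. RPIA stays between -0.44 and -0.40, while TIGAR goes from 0.59 to 0.41 among AT-rich barcodes.

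The order of the levels was much the same in both groups. TALDO1 exceeded PGD in 11 of 11 Control and 26 of 26 KO libraries, although the ranges of the 2 genes over all libraries overlapped. PGD exceeded TKT, and TKT exceeded PGLS, in every library without overlap of the ranges. Further down, neighbours in the order changed places in some libraries. PGLS was above RPIA in 1 of 11 Control libraries and in 18 of 26 KO libraries. RPIA exceeded RPE in 11 of 11 Control and 25 of 26 KO libraries, and TIGAR was below all others in every library. As a share of the summed CPM of the 6 enzymes without TIGAR, TALDO1 took 39.2% ± 1.66 for Control (SD, n = 11) and 38.3% ± 3.43 for KO (SD, n = 26). The share of RPIA was 8.08% ± 0.93 in Control and 6.96% ± 1.28 in KO libraries, and that of PGLS 7.07% ± 0.555 and 7.93% ± 1.17.

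Summed levels were then set side by side for the branches, as a description without a test. PGLS and PGD together reached 349, 436 and 510 CPM in the lowest, median and highest Control library and 315, 420 and 488 CPM in the KO libraries, of which 6 lay below the Control range, or 10 without the Control library ATATAG. RPIA, RPE, TKT and TALDO1 together reached 695, 829 and 894 CPM in Control and 618, 696 and 794 CPM in KO libraries, of which 13 lay below the Control range and 0 above it. The median KO sum of the non-oxidative branch was therefore about that of the lowest Control library, ATATAG, without which 19 KO libraries lay below the range. The ratio of the non-oxidative to the oxidative sum was 1.88 ± 0.0694 (SD, n = 11) in Control libraries, with a range of 1.75 to 1.99. In KO libraries it was 1.74 ± 0.287 (SD, n = 26), with a range of 1.35 to 2.22, and 13 libraries lay below and 7 above the Control range. The 6 KO libraries with the lowest PGD were also the 6 below the Control range of the oxidative sum. Their ratios were 2.08 to 2.22, which places them among the 7. PGD made up most of the oxidative sum, and that sum is the denominator of the ratio. A low PGD level thus lowers the sum and raises the ratio by construction, and this overlap is no separate result. The means of the ratio were closer than the SD of the KO libraries, whose spread was the wider one. GGCCAC, with 794 CPM for the non-oxidative branch and a ratio of 1.84, was the highest KO library for that sum.

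**Figure D3:**
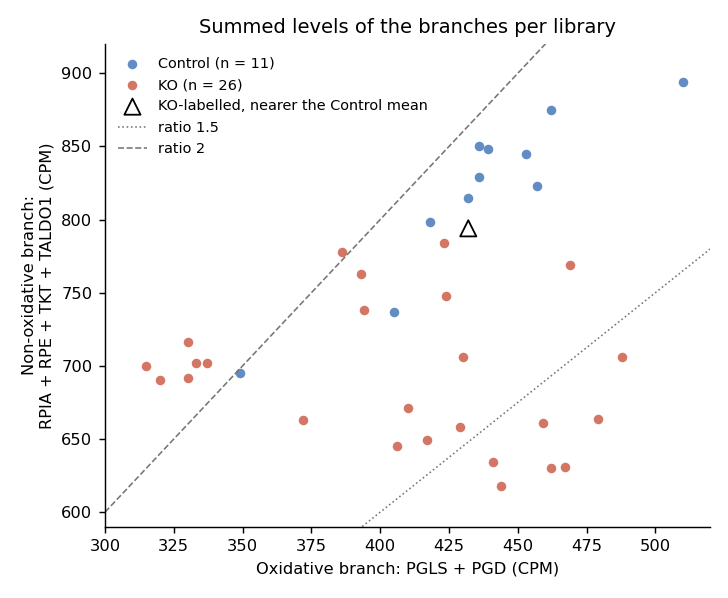
Summed CPM of the non-oxidative enzymes (y axis) against that of the oxidative enzymes (x axis) in each library, with lines at ratios of 1.5 and 2. Control libraries lie along a band at ratios of 1.75 to 1.99, while KO libraries spread from 1.35 to 2.22, and the open triangle is the KO-labelled library that lies nearer to the Control mean.

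The pathway's paralogs and side enzymes had low levels in these cells. Of 9 such genes, 8 were in the table and 2 were tested. TKTL1, a transketolase-like gene, had at most 8 UMIs per library, while TKTL2 and RGN, a lactonase, had at most 1, so that TKT and PGLS were the main transcripts of their kind. DERA, deoxyribose-phosphate aldolase, which joins deoxyribose phosphate to glycolysis, was higher in KO libraries by 0.87 on the log2 scale (SE 0.22, adjusted p = 0.00249 in edgeR). H6PD, which runs the oxidative steps inside the endoplasmic reticulum, had a log2 fold change of -0.17 and did not pass the test (adjusted p = 0.502 in edgeR).

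Enzymes that use ribose phosphate to build purines and pyrimidines were compared next. All 19 were tested, 6 were called lower and 0 higher, and their median log2 fold change was -0.04. The share called, 31.6%, was close to the 33.8% of all tested genes. Named genes fell by 0.25 on the log2 scale for IMPDH2, the rate-limiting enzyme of guanine nucleotide synthesis (adjusted p = 2.47e-05 in edgeR), by 0.24 for PRPS2, which makes phosphoribosyl pyrophosphate (adjusted p = 0.014), by 0.23 for ATIC, which ends inosine monophosphate synthesis (adjusted p = 0.000763), and by 0.15 for PAICS (adjusted p = 0.0265). PRPS1, the other main synthetase of phosphoribosyl pyrophosphate, differed by 0.14 on the log2 scale (adjusted p = 0.11). The call for PAICS was lost when the Control library CGGTGG was left out, and so it was without the library GTTTAT or without the library TTAATC.

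NADPH can also come from other enzymes, and of 8 tested genes of that kind 3 were called lower and 1 higher, or 50% against 33.8% of all tested genes, with a median log2 fold change of -0.08. NNT, the mitochondrial transhydrogenase, was higher in KO libraries by 0.30 on the log2 scale (adjusted p = 0.000325 in edgeR). The kinases that make NADP fell by 0.23 for NADK2 (adjusted p = 0.0129) and by 0.20 for NADK (adjusted p = 0.0231). ALDH1L2, a mitochondrial folate enzyme, fell by 0.58 (SE 0.23, adjusted p = 0.0478), and its call was lost in 26 of the 37 fits that left out 1 library. The call for NADK was lost when the Control library CGGTGG was left out, and so it was without the library GTTTAT or without the library TTAATC.

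Of 15 tested antioxidant genes, not all of which use NADPH themselves, 6 were called lower and 1 higher. This was 46.7% against 33.8% of all tested genes, with a median of -0.05. CAT, which breaks down hydrogen peroxide without NADPH, fell by 0.47 on the log2 scale (adjusted p = 3.43e-06 in edgeR), and SOD1, which forms hydrogen peroxide from superoxide, by 0.26 (adjusted p = 1.72e-06). GSR, the NADPH-dependent glutathione reductase, fell by 0.22 (adjusted p = 0.00807). GLRX, a glutaredoxin, was the gene called higher, with a log2 fold change of 0.47 (adjusted p = 0.000444). In the list built around NFE2L2, the regulator of the antioxidant response, 2 of 13 tested genes were called, with a median of 0.11, a share of 15.4% that lay below the 33.8% of all tested genes. NFE2L2 itself fell by 0.23 (adjusted p = 0.00377 in edgeR) while BACH1, which competes for the same sites, was higher by 0.25 (adjusted p = 0.00839). NQO1, a well-known target of NFE2L2, had a log2 fold change of -0.28 and did not pass the test (adjusted p = 0.121).

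At the junction with glycolysis, 3 of 10 tested genes were called lower and 0 higher, with a median of -0.12, a share of 30% that was close to that of all tested genes. GPI, which interconverts glucose and fructose 6-phosphate, fell by 0.29 on the log2 scale (adjusted p = 0.000269 in edgeR), GAPDH by 0.22 (adjusted p = 0.000274) and ALDOA, an aldolase, by 0.14 (adjusted p = 0.000774). PFKFB4, which like TIGAR acts on fructose 2,6-bisphosphate, differed by -0.31 (adjusted p = 0.108) and PFKFB2 by -0.12 (adjusted p = 0.306), so that neither passed the test. In a list of stress and growth-arrest genes, a group to which TIGAR is often counted, 5 of 11 tested genes were called, all 5 higher, or 45.5% against 17.7% of all tested genes called higher, with a median of 0.27. The log2 fold change was 1.10 for GDF15, a secreted stress marker (adjusted p = 0.00133 in edgeR), 0.81 for CDKN1A, an inhibitor of cyclin-dependent kinases (adjusted p = 0.0296), 0.65 for TP53INP1 (adjusted p = 0.00212) and 0.38 for ZMAT3 (adjusted p = 0.00695). The call for CDKN1A was lost when the Control library AAAGTT was left out, and so it was without the library AAGATT or without the library TTGAAA.

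**Figure D4:**
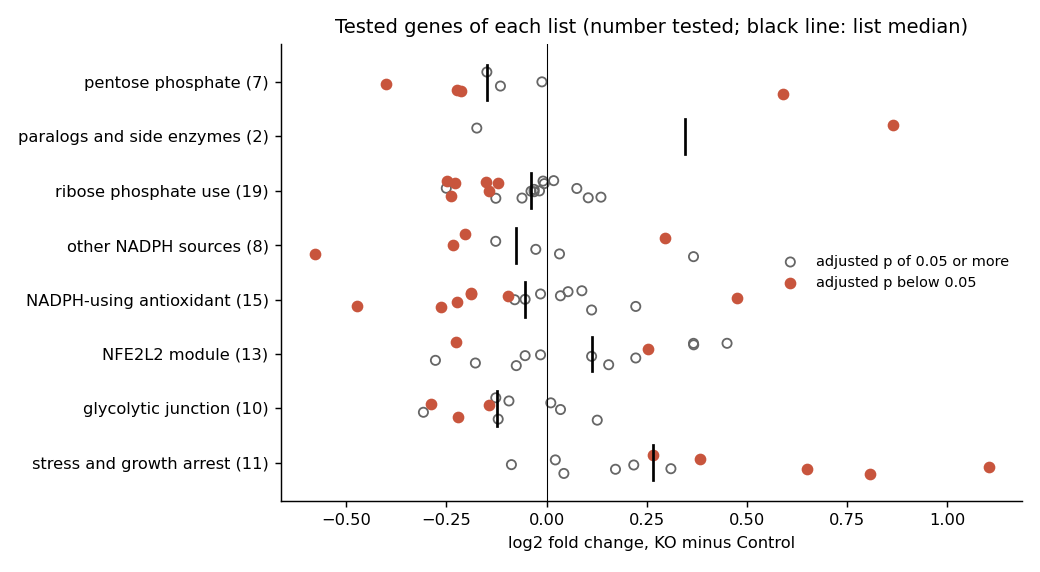
Log2 fold change of KO against Control (x axis) for every tested gene of each list, with filled points for adjusted p below 0.05 and a black line at the list's median. The pentose phosphate genes have a median of -0.15, and TIGAR is their 1 filled point to the right of 0.

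The genes next to each of the 7 on the chromosome were looked up to see whether whole stretches moved. Of 42 neighbours, the 3 nearest tested protein-coding genes on each side, 12 were called, 6 higher and 6 lower, a share of 28.6% that was close to the 33.8% of all tested genes. Next to RPIA, EIF2AK3, 0.155 kb away, differed by 0.19 on the log2 scale (adjusted p = 0.293 in edgeR), of opposite sign to RPIA, while MRPS5, at 6330 kb, had -0.13 (adjusted p = 0.045), a call lost in 24 of the 37 fits that left out 1 library. GATD1, 2.21 kb from TALDO1, fell by 0.64 (adjusted p = 3.22e-07), more than TALDO1 itself, whereas EPS8L2 on the other side had -0.06. TKT lay between PRKCD and DCP1A, with log2 fold changes of 0.13 and -0.01, neither of them called. TIGAR lay between CCND2, with -0.19 (adjusted p = 0.503), and FGF23, which fell by 0.71 (adjusted p = 1.35e-05), the opposite direction to TIGAR. PGD lay between KIF1B, higher by 0.45 (adjusted p = 1.41e-05), and CENPS-CORT, lower with -0.25 (adjusted p = 0.0388), a read-through gene whose reads can be shared with CENPS and whose call was lost in 12 of those 37 fits. Next to PGLS, MVB12A had 0.00 and COLGALT1 -0.20 (adjusted p = 0.0585), and next to RPE, PIKFYVE had -0.07 and KANSL1L -0.12, none of them called. No run of neighbours called in 1 direction on both sides was seen around any of the 7 genes. Some of these neighbours lay far away, at 6330 to 6410 kb on the right of RPIA and 1640 to 2230 kb on the left of RPE. On those sides the look-up could not show whether a shorter stretch moved.

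**Figure D5:**
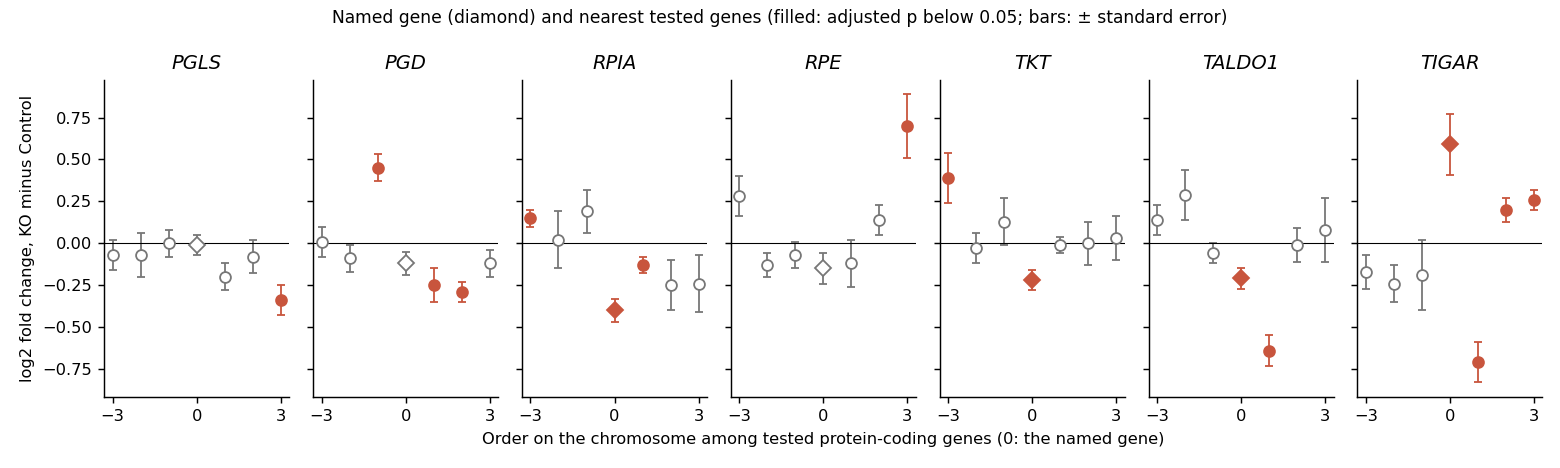
Log2 fold change of KO against Control (y axis, bars ± SE) of each of the 7 genes (diamond, position 0) and of the 3 nearest tested protein-coding genes on each side, in order along the chromosome. Filled symbols have an adjusted p below 0.05, and the largest filled fall next to a diamond is FGF23 beside TIGAR with -0.71.

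Genes whose levels followed each of the 7 were named by Pearson's r over the 37 libraries, after subtracting each group's mean, among 8605 genes that averaged 10 CPM or more. These values describe libraries that share depth and possibly clones, and carry no test. RPIA was followed most closely by CYC1, a subunit of respiratory complex III (r = 0.81), CENPV (r = 0.81) and PEBP1 (r = 0.79). CYC1 also had a lower level in KO libraries, with a log2 fold change of -0.36 (adjusted p = 5.34e-06 in edgeR). TALDO1 was followed by ABCA7 (r = 0.83), QARS1 (r = 0.82) and NPRL3 (r = 0.80), none of which was called in the comparison of the groups. TKT was followed by ERI3 (r = 0.71), PPP2R1A (r = 0.70) and G6PC3 (r = 0.68). PGD was followed by MAGEC2 (r = 0.87), PRDM9 (r = 0.86) and WASF2 (r = 0.86), and PGLS by RNASEH2A (r = 0.77), LONP1 (r = 0.77) and ARMC6 (r = 0.76). RPE was followed by ENSG00000255872 (r = 0.82), MFF (r = 0.78) and SWAP70 (r = 0.77). For TIGAR, with its few UMIs, the highest values were 0.67 for NCOA2, 0.66 for CKAP4 and 0.62 for SMAD3, and such values in sparse counts are no finding. The 7 genes were left out of the search. Values within Control libraries alone were lower for some pairs, with r = 0.21 for RPE and SWAP70 against 0.82 within KO libraries, and r = 0.48 for PGD and WASF2 against 0.90. Among the genes called lower, r within KO libraries was -0.36 for RPIA with TALDO1, -0.29 for RPIA with TKT and -0.05 for TKT with TALDO1. Within Control libraries these values were 0.25, 0.37 and -0.04. In KO libraries a low level of RPIA thus did not go with a low level of TKT or TALDO1.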

How the data were processed

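Bulk SCRB-seq libraries of K562 cells, 26 labelled KO and 11 labelled Control, were compared. Reads were mapped to hg38 with STAR 2.6.0a (submitters' processing notes) and zUMIs counted UMIs on the genes of Ensembl GRCh38.84, and its version is not given in the sources used here. The authors deposited these UMI counts for 32055 genes without normalization. Columns were matched to samples by barcode. Symbols and gene positions came from GENCODE v44 (31323 identifiers paired) and promoter sequences from RefSeq on GRCh38.p14.

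Here, edgeR 4.0.16 (R 4.3.3) was run on the counts with its standard low-count filter, TMM and a robust quasi-likelihood fit of group alone, and p-values of 10661 genes were adjusted by Benjamini-Hochberg. The SE was taken as the size of the log2 fold change over the square root of F. Log2 CPM used a prior count of 2. The common biological coefficient of variation was 0.154. Pairs of libraries in a group differed by more than counting noise, with chi-square over degrees of freedom of 1.43 to 7.91 in Control and 1.14 to 8.77 in KO libraries. None were merged, although such a difference does not show that libraries come from separate clones. Total counts of 563235 to 4710809 UMIs set the counting error, which is largest for TIGAR. On counts simulated for this comparison over 10661 genes, edgeR recovered 84% of genes changed by 0.5 on the log2 scale and 99% of those changed by 1, with 6 false calls. The simulated libraries were independent, with the same spread for every gene and no clones. The count of false calls therefore does not hold for libraries that share a clone.

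The genes and lists were chosen with earlier results of these data known. All 7 genes are named, and 1 marker of the erythroid list is not reported here. From each related list the called genes with the largest absolute log2 fold change are named, up to 4, and a few more that were chosen after their values were seen (PRPS1, H6PD, TKTL1, TKTL2, RGN, NQO1, PFKFB2 and PFKFB4). For each of the 7 genes, the 3 genes with the highest correlation and the immediate neighbours are named. Alternatives were RLE size factors in edgeR, limma-voom (limma 3.58.1), DESeq2 1.42.0, scaling to library size alone, no filter, a filter at 10 CPM, AT-rich barcodes, barcode GC as covariate, leaving out GGCCAC, leaving out the shallowest library GTTTAT, thinning to the smallest total, both thresholds, and leaving out each library.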

Additional observations from a re-analysis of the deposited data

How the results depend on the processing

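RPIA and TKT kept their direction and an adjusted p below 0.05 in every alternative fit, and in each of the 37 fits that left out 1 library, with log2 fold changes of -0.43 to -0.37 for RPIA and -0.25 to -0.20 for TKT in the latter. TALDO1 (-0.23 to -0.19) also kept its call in each of these 37 fits. TIGAR (0.52 to 0.63) kept it in those of the 37 fits that tested it. TIGAR fell under the filter on low counts without the KO library CCAACC, without the library GCTCGC, without the library TAATGA and without the library TTATTG, where a mean of 10 CPM was asked for, and after thinning. Among AT-rich barcodes the log2 fold change was -0.20 for TALDO1 and 0.41 for TIGAR, neither of them called, so that 2 of the 7 genes were called there. With both thresholds 1 of 7 was called, and leaving out 1 library gave 3 to 4. PGLS, near 0, turned sign with library size alone (0.02) and lay between -0.05 and 0.01 when 1 library was left out.

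Over all genes, 3606 calls became 1640 after thinning and 1085 with both thresholds, and 3245 to 3726 when 1 library was left out. Library size alone raised the share of calls that were higher in KO libraries to 62.9% from 52.2% with TMM. The ribose phosphate list had 3 calls among AT-rich barcodes, after thinning and without the Control library CGGTGG. The other NADPH sources had 2 calls with library size alone, after thinning and without the Control library GTTTAT, or that named TTAATC. The NFE2L2 list had 4 calls with limma-voom and 0 after thinning. The stress and growth-arrest list had 3 calls with no filter and without the Control library AAAGTT, or that named AAGATT, and 2 after thinning. The neighbours MVB12A and DCP1A, near 0, changed sign: MVB12A had -0.01 with no filter, -0.11 among AT-rich barcodes, -0.02 with barcode GC and -0.0029 without GGCCAC, with -0.03 to 0.03 when 1 library was left out, and DCP1A had 0.0019 with DESeq2, 0.03 with library size alone, 0.01 among AT-rich barcodes and 0.0026 with barcode GC, with -0.03 to 0.02 when 1 library was left out. Of 462 gene values over 12 settings, 418 kept direction and call. The causes of these changes were not tested. No paired analysis was possible because the labels carry no replicate numbers.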
